A study of Mus musculus with 12 samples.

Results

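The transcripts of 10 genes of insulin and insulin-like growth factor (IGF) signaling were followed in myelin purified from mouse brains of 4 ages. They were taken by gene symbol, and the deposited table listed all 10 among its 21937 genes. They encode the ligands IGF1 and IGF2 (Igf1, Igf2), the receptors Insr, Igf1r and Igf2r, the receptor substrates Irs1 and Irs2, and the secreted binding proteins Igfbp2, Igfbp5 and Igfbp7. Myelin was purified from brains of wild-type male c57Bl6/N mice at postnatal day 18 (P18), postnatal day 75 (P75), 6 months (6mo) and 24 months (24mo), with 3 libraries per age and 12 in all. No group carried a transgene or received a treatment according to the labels. The 6mo libraries came from 3 individual brains, and the labels number the libraries of the other ages without saying whether each was 1 animal, so the p-values measure the spread between these libraries. The library numbers in the column labels run consecutively within each age. The labels do not say which libraries were prepared or sequenced together, so age cannot be told apart from a difference between such runs. The preparation is a light membrane fraction and not a sorted cell, so its RNA can include that of neighboring cells.

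Insulin and the IGFs act through related tyrosine kinase receptors. The activated insulin and IGF1 receptors phosphorylate the IRS proteins, which dock PI3 kinase and so engage Akt and mTOR, while Akt keeps the FoxO transcription factors out of the nucleus. The IGF2 receptor carries no kinase and takes IGF2 up for degradation, and the binding proteins hold the IGFs outside the cell. In the brain, IGF1 is known as a survival and differentiation factor of oligodendrocytes that promotes myelination.

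Values are normalized read counts, that is reads per gene divided by a size factor of the library. The 12 libraries held 20299052 to 27214385 reads on genes, and 1 read was worth 0.812 to 1.19 normalized counts. All 10 transcripts had reads in every library and passed the filter on low values (10 normalized reads on average), as did 14634 of the 21937 genes. Irs2 was the sparsest, with 13 to 226 reads per library, and the other 9 had 167 to 4846 reads. Of the 10 myelin and oligodendrocyte marker genes, 10 were above 0 in every library, and Mbp alone took 9.47 to 20.8% of the total at P18 against 4.76 to 8.48% at the later ages. All listed markers of microglia (12), astrocytes (9), neurons (10), oligodendrocyte precursors (6), endothelium (10), mural cells (9), meningeal fibroblasts (9) and choroid plexus (8) were above 0 in every library too. Of 5 red blood cell markers 1 was, Alas2, with a mean of 416 at P18 and 41.1 at P75. The listed globin genes (Hba-a1, Hba-a2, Hbb-b1 and Hbb-b2) were at 0 at every age. How reads with several matches were counted is not given in the sources used here, so these zeros cannot show that blood RNA was absent. In such bulk samples, fewer cells of a type and less RNA per cell cannot be told apart.

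Calls were made where the adjusted p lay under 0.1 (limma, Benjamini-Hochberg over all genes tested). From P18 to P75, 8 of the 10 transcripts were called, 6 higher and 2 lower, where 25.9% of all genes tested rose and 22.9% fell. From P75 to 6mo, 6 were called, 4 higher and 2 lower, where 31.2% of all genes rose and 29.4% fell. From 6mo to 24mo, 5 were called, 3 higher and 2 lower, beside 16.6% higher and 12.7% lower of all genes. The count of 5 rested partly on the second 6mo library, without which 3 were called. Directly from P75 to 24mo, 5 were higher and 1 lower, beside 28.8% and 26.1% of all genes. Over the whole span from P18 to 24mo, 8 were higher and 1 lower, beside 34.7% and 34.3% of all genes. Over the same span, 8 of 8 choroid plexus markers were called higher (median log2 change 1.60) and 11 of 12 of microglia (1.38). Of meningeal fibroblast markers 6 of 9 were higher (0.77, with 1 lower). Of mural cells 4 of 9 were higher (0.63, with 2 lower), and of astrocytes 5 of 9 (0.33, with 2 lower). Of 10 myelin and oligodendrocyte markers 8 were lower and 0 higher (-1.21). The neuronal, endothelial and precursor lists had medians near 0, with 4 of 10 neuronal markers higher and 4 lower (-0.03). Of 10 endothelial markers 4 were higher and 2 lower (-0.01), and of 6 precursor markers 2 and 1 (-0.02). The 1 red blood cell marker tested was lower. The part of these cell types in the rise of the receptors, Igfbp2 and the other transcripts was not tested. Neighboring comparisons share libraries and are not independent of each other.

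Few of these changes passed a fold of 2. None did from P18 to P75, where 4.54% of all genes were called and over 2-fold. Irs2 and Igf2 did from P75 to 6mo (9.31% of all genes), Irs2 from 6mo to 24mo (1.68%), and Igf2 from P75 to 24mo (6.05%). Both Igf2 changes lay near the threshold (log2 changes of 1.03 and 1.04), and their lowest values in alternative settings, 0.93 and 0.94, lay under it. From P18 to 24mo, Igf1r, Igf2r and Igfbp2 more than doubled (18.4% of all genes were called and over 2-fold). The median log2 change of the 10 from P18 to 24mo was 0.73, beside -0.01 over all genes tested.

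**Figure D1:**
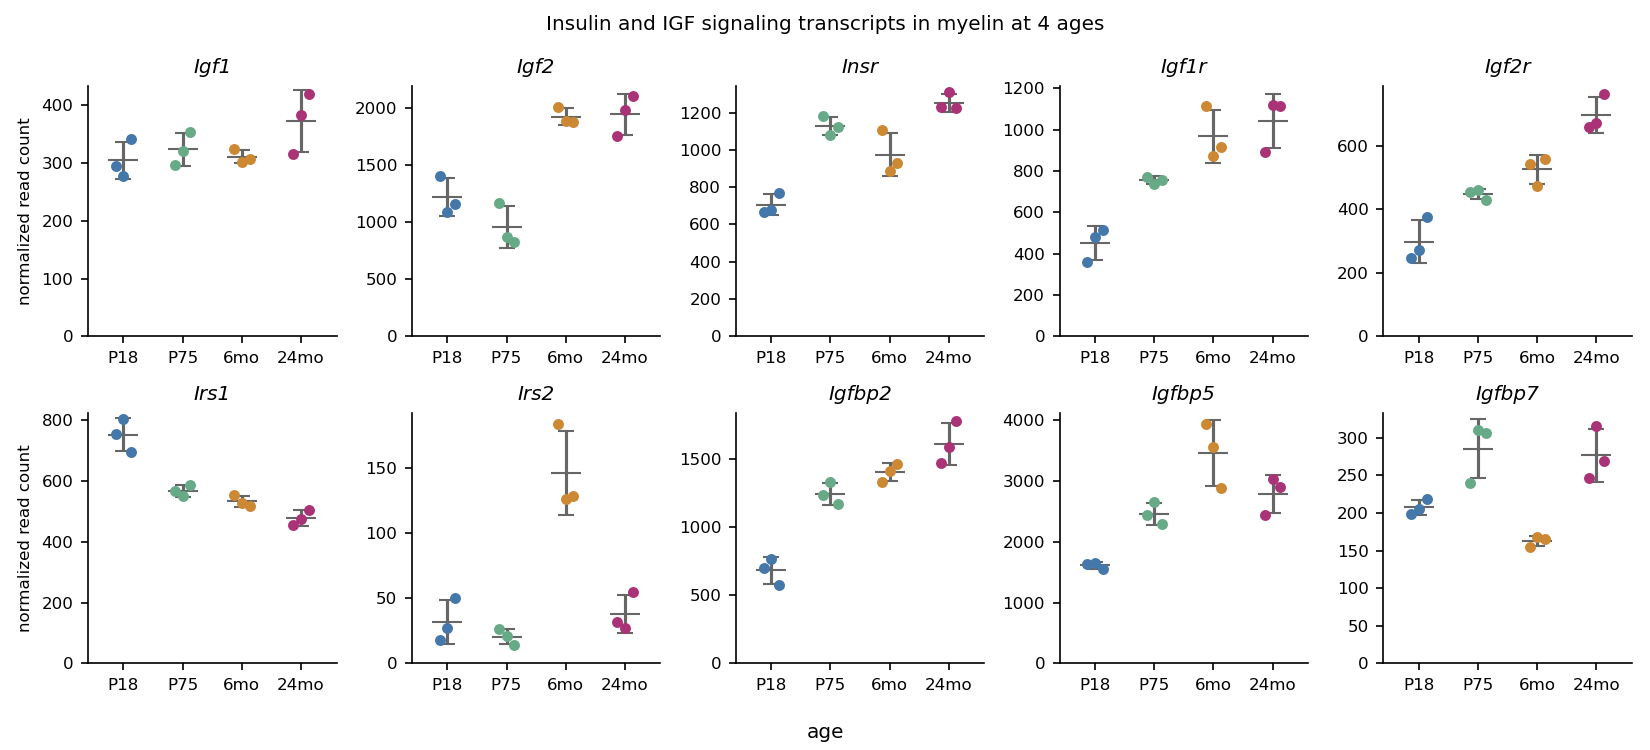
Normalized read count of each transcript in every library (y axis, from 0) by age (x axis), with points in the order of the replicate numbers and the mean ± SD (n = 3). Irs2 stood at 126 to 184 in the 6mo libraries and at no more than 54.6 in any other, Irs1 was lower in every later library than in the P18 libraries, and Igfbp7 was lowest at 6mo.

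The receptor substrates differed in their course. Irs1 was highest in young myelin and Irs2 was high at a single age. Both proteins link the receptors to PI3 kinase, and in liver the Irs2 transcript is known to rise on fasting. Irs1 lies on the minus strand of chromosome 1 (82229676 to 82287991, 2 exons, build NCBIM37, which is mm9), and Irs2 on the minus strand of chromosome 8 (10986980 to 11008458, 2 exons). Irs1 shares 2822 exon bases with the gene model Gm9747 on the opposite strand and Irs2 162 with 9530052E02Rik, so reads there cannot be assigned without the strand.

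Irs2 had normalized read counts of 17.8, 27.1 and 50.2 at P18, and of 26.1, 21.3 and 14.4 at P75. At 6mo it had 184, 126 and 128, and at 24mo 31.7, 27.0 and 54.6. The 3 6mo libraries were all above the 9 others, and the P18 libraries overlapped those of P75 and of 24mo. These values rest on 132 to 226 reads per library at 6mo and on 13 to 59 reads at the other ages. The mean rose 7.10-fold from 20.6 ± 5.88 at P75 to 146 ± 32.6 at 6mo (SD, n = 3 each), a log2 change of 2.78 (SE 0.34, adjusted p = 6.07e-06). It then fell to 37.8 ± 14.8 at 24mo, a log2 change of -1.97 (SE 0.34, adjusted p = 0.00178). Both changes were called in all 22 alternative settings that could test the gene, among them each fit that left out 1 library. The log2 change of 0.82 from P75 to 24mo was called (adjusted p = 0.0555) but was lost without the third P75 library (adjusted p = 0.207), without the third 24mo library (0.249) or after quantile normalization (0.131). The log2 changes from P18 to P75 (-0.52, adjusted p = 0.234) and from P18 to 24mo (0.30, adjusted p = 0.447) were not called, although the first was without the first P18 library (adjusted p = 0.0532) and the second without the third P18 library (0.0588).

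Irs1 had 755, 806 and 697 normalized reads at P18, 567, 550 and 587 at P75, 555, 527 and 518 at 6mo, and 455, 475 and 506 at 24mo. Every P18 library was above every later one, and the P75 and 6mo libraries overlapped. The fall from P18 to P75 was -0.40 on the log2 scale (SE 0.09, adjusted p = 0.00139), and that from P75 to 24mo was -0.25 (adjusted p = 0.0260). The log2 changes of the steps in between, -0.09 from P75 to 6mo (adjusted p = 0.385) and -0.16 from 6mo to 24mo (adjusted p = 0.205), were not called. From P18 to 24mo the level fell to 0.636 of its start, a log2 change of -0.65 (SE 0.09, adjusted p = 5.83e-06). Irs1 was the only one of the 10 called lower over this span.

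Per kilobase of annotated exon, Irs2 made up 8.76% ± 4.71 of the summed level of both substrates at P18 and 7.61% ± 2.13 at P75 (SD, n = 3). At 6mo its share was 38.1% ± 4.23, and at 24mo 14.9% ± 4.26. The 6mo libraries, at 35.2 to 42.9%, lay above the highest of the others, 19.7%. The annotated exons of Irs2 (4024 bases) are less than those of Irs1 (9144 bases), so the share depends on the annotation: taken from counts, it was 21.3% at 6mo and 7.21% at 24mo. For such shares, an exact permutation test of 3 libraries against 3 cannot go below p = 0.1, so none is given.

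The bases before the start sites of both substrate genes are shown because the transcripts diverge and the insulin response sequence CAAAACA, a short element named for insulin-regulated promoters, was found there. In the RefSeq windows (GRCm38.p6, 250 bases before to 50 after a start site), 9 of the 10 genes matched, with 13 windows, and Insr did not. CAAAACA, searched on both strands, was in 2 of the 13, one of Irs1 and one of Irs2, and in 6.28% of all 32851 windows. The 120 bases before each start site follow, with the match in capitals (read here on the other strand as TGTTTTG). The Irs1 stretch is chr1:82291440-82291559 and the Irs2 stretch chr8:11008930-11009049, both on the minus strand.
Irs1: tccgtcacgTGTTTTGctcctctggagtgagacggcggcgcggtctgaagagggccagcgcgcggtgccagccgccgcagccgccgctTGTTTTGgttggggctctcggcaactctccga
Irs2: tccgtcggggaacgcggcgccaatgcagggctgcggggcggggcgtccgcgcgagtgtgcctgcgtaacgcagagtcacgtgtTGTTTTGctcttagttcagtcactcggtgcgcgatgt
The matches begin 111 and 32 bases before the Irs1 start site and 37 bases before that of Irs2. The FoxO element GTAAACA, also searched on both strands, was in 0 of the 13 windows and in 3.65% of all windows, so the motifs overlapped in none of them. The matches are a description of these letters and were not tied to the values above by any test.

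The receptors were lowest at P18. Insr, the insulin receptor, Igf1r, the IGF1 receptor, and Igf2r, the uptake receptor for IGF2, were each called higher at P75 than at P18, and at 24mo they stood at 1.77, 2.30 and 2.33 times the P18 mean.

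Igf1r (chromosome 7, 75097713 to 75371484, plus strand, 22 exons) had 361, 479 and 517 normalized reads at P18, and 774, 736 and 758 at P75. It had 1114, 873 and 918 at 6mo and 891, 1119 and 1114 at 24mo. No library of a later age reached down to those of P18, no P75 library reached up to those of 6mo, and the 6mo and 24mo libraries overlapped. The log2 change was 0.76 from P18 to P75 (SE 0.13, adjusted p = 0.000270), 0.35 from P75 to 6mo (adjusted p = 0.0332) and 0.10 from 6mo to 24mo (adjusted p = 0.607). The middle step was not called without the first 6mo library (log2 change 0.24, adjusted p = 0.167). From P18 to 24mo it was 1.21 (SE 0.13, adjusted p = 6.52e-07).

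Igf2r (chromosome 17, 12875272 to 12962530, minus strand, 50 exons) had 247, 273 and 376 at P18, 456, 460 and 430 at P75, 544, 475 and 559 at 6mo, and 658, 671 and 762 at 24mo. The libraries of the 4 ages did not overlap in this order. The log2 change was 0.61 from P18 to P75 (SE 0.13, adjusted p = 0.00140) and 0.41 from 6mo to 24mo (adjusted p = 0.0379). The change between them, 0.23 from P75 to 6mo, was not called (adjusted p = 0.151). It was called in 2 of 23 alternative settings, among them the fit without the third P18 library (0.0464). The last step was lost without the second 6mo library (adjusted p = 0.142), without the third 24mo library (0.119) or when the libraries were scaled to the same total (0.130). From P18 to 24mo the log2 change was 1.24 (SE 0.13, adjusted p = 4.39e-07). The antisense transcript Airn, which starts inside Igf2r, had a mean of 41.0 and shares no exon bases with it.

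Insr (chromosome 8, 3150922 to 3279617, minus strand, 22 exons) had 668, 680 and 771 at P18, 1179, 1082 and 1122 at P75, 1105, 888 and 929 at 6mo, and 1228, 1309 and 1222 at 24mo. The P18 libraries were the lowest and the 24mo libraries the highest, with P75 and 6mo overlapping between them. It rose by 0.68 on the log2 scale from P18 to P75 (SE 0.09, adjusted p = 4.01e-05) and by 0.37 from 6mo to 24mo (SE 0.09, adjusted p = 0.0132). From P75 to 24mo the log2 change of 0.15 was not called (adjusted p = 0.191). The decline from P75 to 6mo, a log2 change of -0.22 (adjusted p = 0.0602), was lost without the first P75 library (adjusted p = 0.164), the third P75 library (0.101), the second 6mo library (0.229) or the third 6mo library (0.163), and when libraries were scaled to the same total (0.151).

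Within a library, the ratio of Igf1r to Insr reads was 0.639 ± 0.0863 at P18 and 0.671 ± 0.0130 at P75, and reached 0.993 ± 0.0130 at 6mo (SD, n = 3). It was 0.830 ± 0.0955 at 24mo. The 6mo ratios, 0.984 to 1.01, were above all those of the other ages, of which the highest was 0.911.

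**Figure D2:**
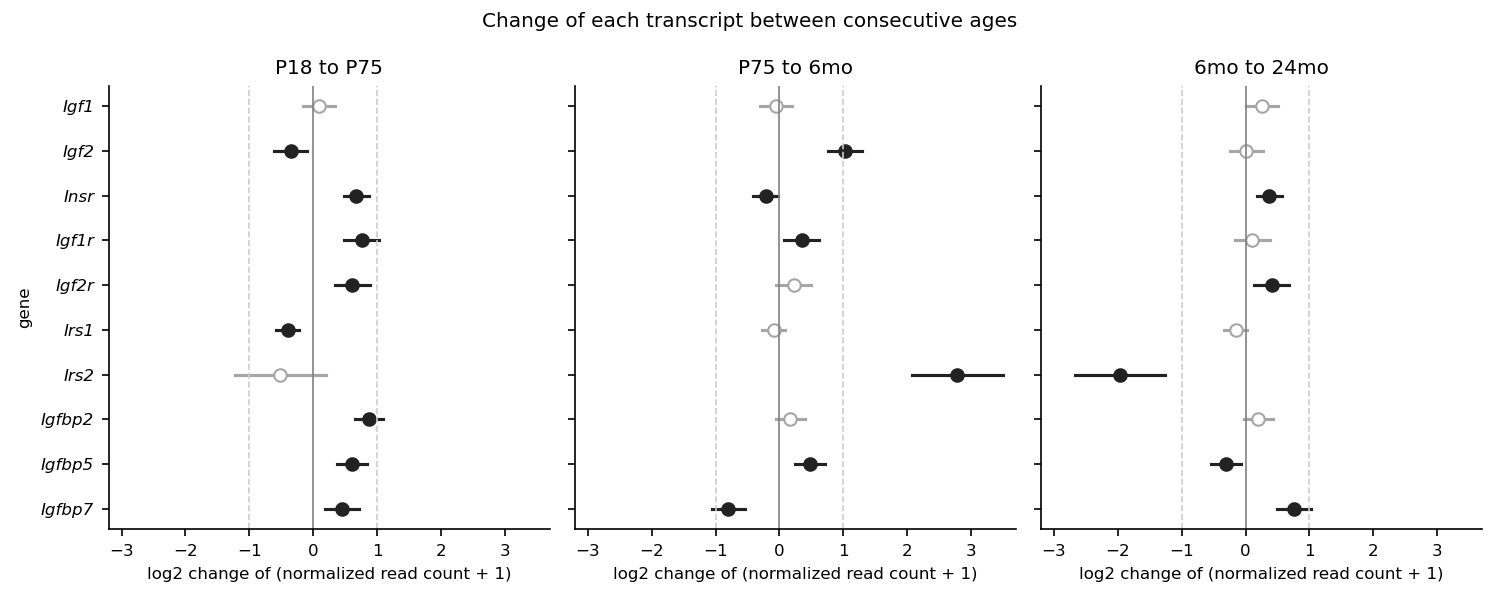
Log2 change of (normalized read count + 1) of each transcript between consecutive ages (x axis, limma estimate with its 95% confidence interval), with filled points where the adjusted p was under 0.1 and dashed lines at a fold of 2. From P75 to 6mo Irs2 (2.78) and Igf2 (1.03) rose past the dashed line while Igfbp7 fell (-0.80), and from 6mo to 24mo Irs2 fell (-1.97) and Igfbp7 rose (0.76).

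The ligands also parted. Igf2 about doubled between P75 and 6mo and Igf1 was called in a single comparison. Igf2 (chromosome 7, 149836673 to 149852721, minus strand) encodes the fetal growth factor IGF2, which in the adult brain is known from choroid plexus and meninges. It had 1403, 1085 and 1160 normalized reads at P18 and 1168, 871 and 828 at P75, ages whose libraries overlapped. It had 2011, 1882 and 1880 at 6mo and 1750, 1983 and 2101 at 24mo, all above every younger library. The rise from P75 to 6mo was 1.03 on the log2 scale (SE 0.12, adjusted p = 6.07e-06), and the change from 6mo to 24mo was not called (0.01, 95% CI -0.25 to 0.27, adjusted p = 0.960). The decline from P18 to P75, a log2 change of -0.36 (adjusted p = 0.0299), was lost without the first P18 library (adjusted p = 0.145), the second P75 library (0.111) or the third P75 library (0.139), and with libraries scaled to the same total (0.210).

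Markers of the tissues known for Igf2 rose over the same step, where 31.2% of all genes tested were called higher and 29.4% lower. They were not alone, as 6 of 10 neuronal markers were higher and 3 lower, and 6 of 12 microglial markers were higher and 2 lower. The summed normalized read count of the 9 meningeal fibroblast markers was 1654 to 2095 at P75 and 3064 to 3174 at 6mo, and 4 of the 9 were called higher and 0 lower. That of the 8 choroid plexus markers lay between 23644 and 29026 at P75 and between 27767 and 32128 at 6mo. Of the 8, 6 were called higher and 0 lower. Ttr made up most of this sum at every age and was not called over this step (log2 change 0.20, adjusted p = 0.179). The 6 called markers rose by 0.36 (Clic6) to 1.61 (Aqp1) on the log2 scale. At P18, where Igf2 was higher than at P75, the meningeal sum lay between 1092 and 1733, and the choroid plexus sum lay between 12707 and 14795. At 24mo the sums lay between 3119 and 3739 and between 42935 and 47618. Their part in the Igf2 values was not tested. The antisense transcript Igf2as, which shares 98 exon bases with Igf2, had a mean of 4.59 against 1510 for Igf2.

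Igf1 (chromosome 10, 87321010 to 87399792, plus strand) had 295, 278 and 340 at P18, 296, 321 and 354 at P75, 323, 302 and 307 at 6mo, and 315, 383 and 419 at 24mo. The libraries of all ages overlapped. No consecutive step was called, with log2 changes of 0.09 (adjusted p = 0.581), -0.05 (0.715) and 0.25 (0.142). From P18 to 24mo the log2 change was 0.29 (SE 0.12, adjusted p = 0.0455), and this call was lost without the first or second P18 library (adjusted p = 0.106 and 0.161), without the second or the third 24mo library (0.122 and 0.201) and after quantile normalization (0.218). The step from 6mo to 24mo was called in 3 of 23 alternative settings, among them without the first 24mo library (adjusted p = 0.0606) and without the third P18 library (0.0964). From P75 to 24mo the log2 change of 0.20 was not called (adjusted p = 0.184), but was in 1 of 23 alternative settings (0.0452). Microglia are a known source of IGF1. The sum of 12 microglial markers lay between 6866 and 7818 at P18 and between 17238 and 21200 at 24mo. Of the 12, 11 were called higher over this span, beside 34.7% of all genes. The part of microglia in the Igf1 values was not tested. Counting reads per kilobase, Igf2 exceeded Igf1 by 7.27 ± 1.24 times at P18, 5.42 ± 1.52 at P75, 11.2 ± 0.0988 at 6mo and 9.48 ± 0.501 at 24mo (SD, n = 3).

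The 3 binding proteins had different courses. Igfbp2 rose with age, Igfbp5 peaked at 6mo and Igfbp7 was lowest there. Igfbp2 binds both IGFs, Igfbp5 also attaches to the extracellular matrix, and Igfbp7 is a related secreted protein of low IGF affinity known from blood vessels. Igfbp2 and Igfbp5 are neighbors on chromosome 1 (72871077 to 72899048, plus strand, and 72904506 to 72921458, minus strand), and Igfbp7 lies on chromosome 5 (77778265 to 77837070, minus strand).

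Igfbp2 had 703, 771 and 575 normalized reads at P18, 1237, 1331 and 1170 at P75, 1334, 1413 and 1465 at 6mo, and 1474, 1589 and 1780 at 24mo. The libraries of the 4 ages did not overlap in this order. The step from P18 to P75 carried the largest change, 0.88 on the log2 scale (SE 0.11, adjusted p = 1.28e-05). The later steps of 0.17 (adjusted p = 0.178) and 0.20 (adjusted p = 0.194) were not called by themselves. Both were called in fits without the third P18 library (0.0886 and 0.0898), and 2 of 23 alternative settings called the step to 24mo. The sum of both steps, from P75 to 24mo, was called (0.37, adjusted p = 0.00895). From P18 to 24mo the log2 change was 1.25 (SE 0.11, adjusted p = 4.15e-08).

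Igfbp5 had 1624, 1655 and 1548 at P18, 2429, 2655 and 2295 at P75, 3937, 3547 and 2876 at 6mo, and 2436, 3024 and 2898 at 24mo. P18 lay below all later libraries, and the 24mo libraries overlapped those of P75 and of 6mo. It rose by 0.61 (SE 0.11, adjusted p = 0.000418) and then by 0.48 (SE 0.11, adjusted p = 0.00178) on the log2 scale. The decline from 6mo to 24mo, a log2 change of -0.30 (adjusted p = 0.0633), was lost without the first 6mo library (adjusted p = 0.265), the second 6mo library (0.166) or the first 24mo library (0.253). From P75 to 24mo the log2 change of 0.18 was not called (adjusted p = 0.203) unless the first 24mo library was left out (0.0748).

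Igfbp7 had 198, 206 and 218 at P18, 241, 310 and 306 at P75, 155, 168 and 165 at 6mo, and 247, 316 and 268 at 24mo. The 6mo libraries were the lowest of all, and the P75 and 24mo libraries overlapped. It rose by 0.45 on the log2 scale to P75 (SE 0.12, adjusted p = 0.00786), then changed by -0.80 to 6mo (SE 0.12, adjusted p = 5.98e-05) and by 0.76 to 24mo (SE 0.12, adjusted p = 0.00142). All 23 alternative settings called each of these steps. The summed count of 10 endothelial markers was 837 to 1036 at P75, 719 to 868 at 6mo and 810 to 887 at 24mo. From P75 to 6mo, 31.2% of all genes rose and 29.4% fell. Over this step, 3 of the 10 endothelial markers were called higher (30%, Pecam1, Flt1 and Kdr) and 2 lower (20%, Ly6c1 and Slco1a4). The sum of the 9 mural markers was 1095 to 1202 at P75, 1554 to 1738 at 6mo and 1369 to 1715 at 24mo. Of these 9, 3 were called higher (33.3%) and 1 lower (11.1%) from P75 to 6mo. The part of either list in the Igfbp7 values was not tested. Igfbp7 shares 85 exon bases with Polr2b on the opposite strand (mean 1322), and the strand setting of the counting is not given in the sources used here.

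**Figure D3:**
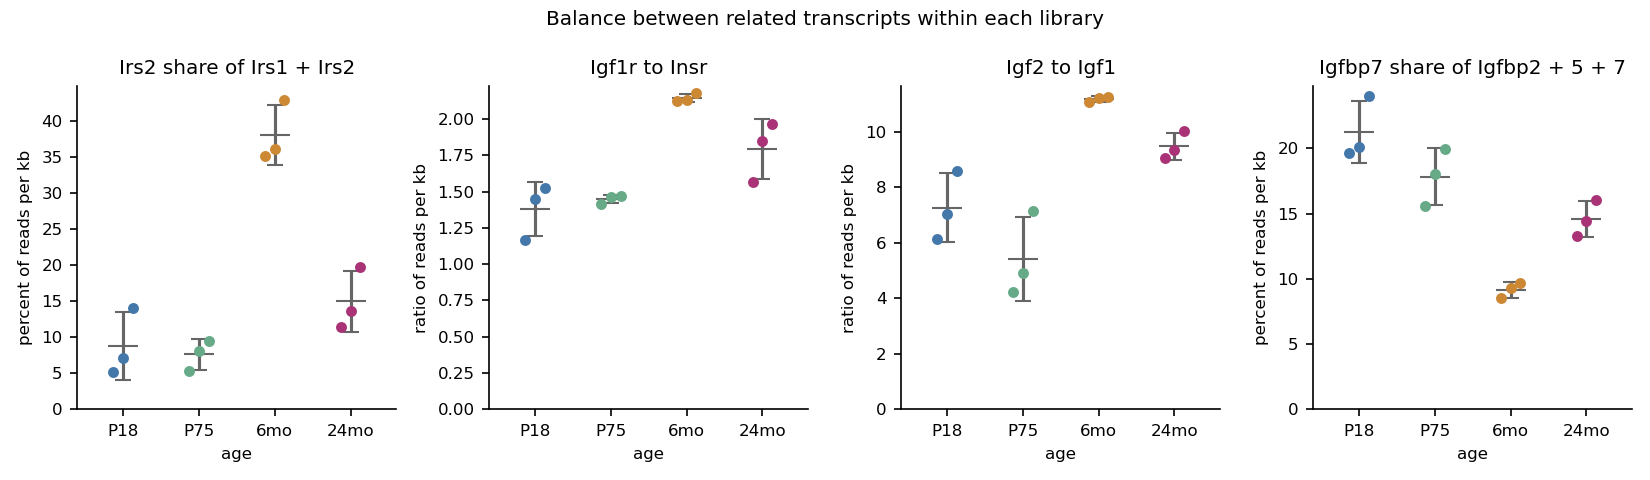
Balance between related transcripts within each library by age (points sorted by value, with mean ± SD, n = 3), as a percent or ratio of normalized reads per kilobase of annotated exon, with y axes from 0. At 6mo the Irs2 share (38.1%), the Igf1r to Insr ratio (2.15) and the Igf2 to Igf1 ratio (11.2) were at their highest and the Igfbp7 share of the 3 binding proteins (9.15%) at its lowest.

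Set in order by normalized reads per kilobase, Igfbp2 was first and Igfbp5 second at every age, from 370 ± 53.9 and 268 ± 9.21 at P18 to 874 ± 83.7 and 464 ± 51.6 at 24mo (SD, n = 3). Igf2 came next except at P75, where Igfbp7 (235) and Igf2 (174) overlapped, as did Igf2 and Igf1r (169). Per kilobase, Igf1r was above Insr at every age, although the libraries of Igf1r and Irs1 overlapped at P18, as did those of Irs1 and Insr. Irs2 was last at P18 (7.88 ± 4.15), P75 (5.11 ± 1.46) and 24mo (9.39 ± 3.67), and at 6mo it overlapped with Igf1 (36.3 ± 8.09 against 31.3 ± 1.14). Irs1 and Igf2r overlapped at 6mo, and their order was Irs1 over Igf2r at P75 and Igf2r over Irs1 at 24mo. At 24mo Igf1r and Igfbp7 overlapped, and at P18 Igf2r and Igf1. The annotated exons of Igf1r hold 4476 bases and those of Insr 9669, and levels per kilobase depend on these lengths. Taken from counts, the order of these receptors was reversed, with the Igf1r mean below the Insr mean at every age. The means were 453 against 706 at P18, 756 against 1128 at P75, 968 against 974 at 6mo and 1041 against 1253 at 24mo. At 6mo the counts of both overlapped.

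The remaining pathway was described through lists of 115 other genes, of which 106 could be tested. Over the span from P18 to 24mo, 24 of them were higher and 58 lower (22.6% and 54.7%, beside 34.7% and 34.3% of all genes). From P18 to P75, 14 were higher and 43 lower (13.2% and 40.6%, beside 25.9% and 22.9% of all genes). From P75 to 6mo, 28 were higher and 31 lower (26.4% and 29.2%, near the 31.2% and 29.4% of all genes). From 6mo to 24mo, 12 were higher and 24 lower (11.3% and 22.6%, beside 16.6% and 12.7%), and from P75 to 24mo 19 and 34 (17.9% and 32.1%, beside 28.8% and 26.1%). Of the 18 PI3 kinase and Akt genes, 15 were lower and 2 higher from P18 to 24mo, with a median log2 change of -0.41. Of the 24 receptor adaptors and brakes, 16 were lower and 2 higher (median -0.33), and of the 11 Ras and MAP kinase genes 8 were lower and 1 higher (median -0.34). Of the 15 FoxO factors and FoxO-induced genes, 9 were lower and 2 higher. Of the 20 mTOR genes 8 were higher and 6 lower (40% and 30%, near the 34.7% and 34.3% of all genes), and of the 11 other binding proteins and their proteases 6 were higher and 3 lower. Of 5 tested insulin family ligands and receptors 3 were higher and 0 lower, all of low level, and of 2 IGF2 mRNA-binding proteins 1 was lower. Over the same span 8 of the 10 myelin and oligodendrocyte markers were lower and 0 higher, with a median log2 change of -1.21, and their part in the counts of these lists was not tested.

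**Figure D4:**
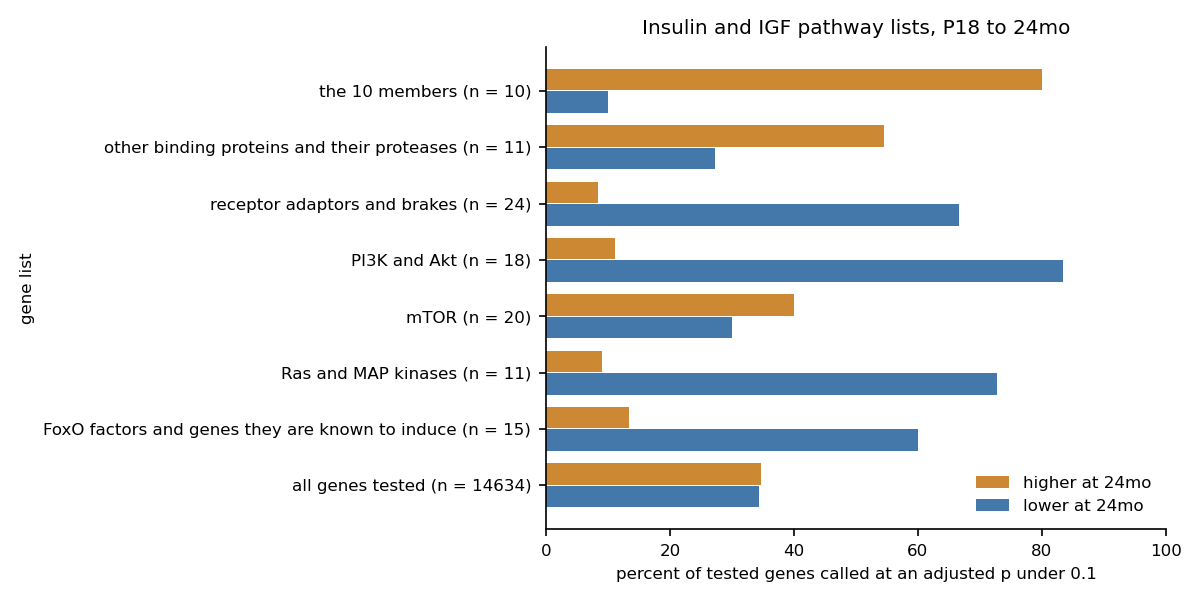
Percent of the tested genes of each list called higher or lower at 24mo than at P18 (x axis, from 0 to 100, adjusted p under 0.1), beside all genes tested. Of the 18 PI3 kinase and Akt genes 83.3% were lower, against 34.3% of all 14634 genes. Of the 10 followed transcripts 80% were higher, against 34.7% of all genes.

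The genes with the largest changes in these lists include inhibitors and scaffolds of the receptors. Grb14, an adaptor that binds the insulin receptor and restrains it, fell from 3648 ± 878 at P18 to 2055 ± 402 at P75, 1005 ± 133 at 6mo and 1027 ± 63.5 at 24mo (SD, n = 3), a log2 change of -1.80 from P18 to 24mo (SE 0.16, adjusted p = 9.17e-08). Socs2, a brake on growth hormone receptor signaling, fell from 443 ± 55.6 to 194 ± 9.88 over the same span (log2 change -1.19, adjusted p = 1.37e-07). Gab2, a docking scaffold for PI3 kinase, rose from 813 ± 206 to 2401 ± 225 (1.59, adjusted p = 1.10e-05).

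Fbxo32, a ubiquitin ligase induced by FoxO factors, rose from 344 ± 68.7 at P18 to 1060 ± 35.6 at 24mo (1.64, adjusted p = 4.95e-06). Htra1, a secreted protease that cleaves IGF binding proteins, rose at each step from 2210 ± 97.6 to 5384 ± 221 (1.28 from P18 to 24mo, adjusted p = 1.06e-08). Ddit4, an inhibitor of mTOR induced by stress, fell from 2387 ± 754 to 971 ± 230 (-1.28, adjusted p = 1.30e-05).

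Some of the genes rose to 6mo and fell after it, as Irs2 did. Sesn2 is a stress-induced inhibitor of mTOR complex 1. It had a mean of 33.0 ± 9.08 at P75, 157 ± 10.8 at 6mo and 85.1 ± 3.25 at 24mo (SD, n = 3). It rose by 2.25 on the log2 scale from P75 to 6mo (adjusted p = 1.35e-07) and changed by -0.88 from 6mo to 24mo (adjusted p = 0.00402). The adaptor Shc3 also rose to 6mo (1.10, adjusted p = 0.000333) and fell after it (-0.65, adjusted p = 0.0380). Ide, the insulin-degrading enzyme, rose by 0.57 to 6mo (adjusted p = 0.000435) and fell to 24mo (-0.76, adjusted p = 0.000638). Rheb, the GTPase that activates mTOR complex 1, fell from P75 to 6mo (-0.67, adjusted p = 1.52e-05).

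Of the others with the largest changes, Inppl1, a phosphatase that opposes PI3 kinase, fell by 1.03 on the log2 scale from P18 to P75 (adjusted p = 7.25e-06), and the docking protein Dok4 fell by 0.94 (adjusted p = 5.28e-05). Rps6, a ribosomal protein and target of S6 kinase, rose by 1.23 (adjusted p = 6.09e-05), but it has processed pseudogenes and how reads with several matches were counted is not given in the sources used here. Later, Rps6kb2, an S6 kinase, rose by 0.76 from 6mo to 24mo (adjusted p = 0.00162), and the binding protein Igfbp6 rose by 0.35 (adjusted p = 0.0387). From P75 to 24mo, Pik3ip1, an inhibitor of PI3 kinase, rose by 0.64 (adjusted p = 3.79e-05), and Nras fell by 0.63 (adjusted p = 0.00644).

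Among the 14624 other genes tested, those with the course most like each of the 10 were taken by the Pearson r of log2 values over the 12 libraries, as a description, since the libraries share depth and age. For Irs2 these were Zbtb38 (r = 0.974) and Wdr48 (0.973), whose means at 6mo (133 and 826) were above those at the other ages (50.6 to 65.1 and 447 to 551). For Igf1r they were Chrdl1 (0.991) and Kcnh1 (0.983), for Igf2r Fbxl2 (0.989) and BC005764 (0.987), and for Insr Scn3a (0.980) and Odz2 (0.979). For Irs1 they were Ick (0.980) and Usp6nl (0.980), and for Igf2 Pdgfa (0.957) and Ptprt (0.956). For Igfbp2 they were Pgcp (0.984) and Efemp1 (0.983), for Igfbp5 Kcna6 (0.981) and Znfx1 (0.976), and for Igfbp7 Jtb (0.951) and 1700094D03Rik (0.940). Igf1 had the weakest likeness, with Galnt3 (0.882) and Fubp1 (0.881).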

How the data were processed

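RNA of purified myelin was sequenced at 4 ages, with 3 libraries each, grouped by the age in the labels. The authors aligned reads to mm9 with TopHat (2.0.8 per the processing notes), counted them per gene with HTSeq 0.5.4p1, and scaled each library by its DESeq size factor. What they deposited is this signal, the normalized read count, with no correction for length. The lower values, 14327 to 15069 per library, were checked, and 100% were whole multiples of 1 read (within 0.1 of a read), which gave the depth. Sequencing depth limits Irs2 most.

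Ages were compared with limma 3.58.1 (trend, empirical Bayes, R 4.3.3) on log2(normalized read count + 1) for genes averaging 10 or more, fitting all 12 libraries at once. The added 1 understates changes of low genes. Benjamini-Hochberg adjustment ran over all 14634 genes, with calls under 0.1. Alternatives were a pseudocount of 0.5 or 10, other filters and scalings, edgeR 4.0.16 and DESeq2 1.42.0 on recovered reads, a replicate block, and leaving out each library. Same-numbered libraries of P75 and 6mo deviated together weakly (r = 0.161, 0.101 and 0.187). The labels give no pairing and differently numbered libraries were not compared, so these values cannot show that the numbers pair. Positions and lengths came from GENCODE vM1 on NCBIM37, with lengths for 95.4% of symbols. The methods were tested on simulated data with changes larger than any of the followed transcripts other than Irs2 showed. Smaller changes were not simulated.

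The 10 genes and all lists were chosen with earlier results of these data known. Named pathway genes were, in each comparison, the 3 largest rises and the 3 largest falls among called genes with a mean of at least 100 at 1 of the 2 ages, and the 2 genes most like each member. The marker lists served to describe other cell types. Of the 12 value columns, 0 were left unmapped.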

Additional observations from a re-analysis of the deposited data

How the results depend on the processing

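No change reversed in any alternative. Of 1145 values of single transcripts under alternatives, 1106 kept their side of the threshold, 10 of them uncalled values whose sign changed, 27 lost the call and 12 gained one. Leaving out 1 library gave 7 to 8 calls from P18 to P75, 5 to 8 from P75 to 6mo, 3 to 7 from 6mo to 24mo, 5 to 8 from P75 to 24mo and 8 to 10 from P18 to 24mo. The 3 came without the second 6mo library. A fit with replicate block called 8, 6, 5, 6 and 9 transcripts in the same order, as did the fit without it, and the block changed no call. For comparisons other than P75 to 6mo, same-numbered libraries did not deviate together (r = -0.213 to 0.0286). Irs2 was not tested under a filter for a mean of at least 100. Scaling to the same total shifted the median of all genes from P18 to P75 by 0.12 on the log2 scale and gave 4739 higher and 1827 lower genes in place of 3783 and 3354, and from 6mo to 24mo 1394 and 1614 in place of 2435 and 1852. Quantile normalization shifted the P18 to 24mo median by -0.10.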

Other observations

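The insulin genes themselves were at or near 0. Ins1 and Insl3 had no reads in any library, and Ins2 had a mean of 3.32 to 7.40 normalized reads at the 4 ages, below the filter. Igf2bp2, an RNA-binding protein named for binding the Igf2 transcript, had 39.3 ± 1.33 at P18 and fell to 13.1 ± 0.937 by P75 (mean ± SD of 3 libraries), with a log2 change of -1.52 (SE 0.25, adjusted p = 0.000156, limma). Stc2, an inhibitor of the protease PAPP-A, which frees IGFs from binding proteins, had 6.87 ± 2.76 at P75 and 21.1 ± 5.02 at 6mo, a log2 change of 1.52 (SE 0.32, adjusted p = 0.000956). Igfbp3 had 421 ± 65.6 at P18 and 281 ± 32.7 at P75, a log2 change of -0.58 (SE 0.12, adjusted p = 0.00126). These 3 genes were chosen after their values were seen.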
